A study of Rattus norvegicus with 10 samples.

Results

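The cytosolic ribosomal protein genes were followed across islets of 5 groups of rats. Members were taken by name from the annotation of the array: every probe set with a single gene symbol that begins with Rpl or Rps and a digit, or is Rpsa, Rplp0, Rplp1 or Rplp2, without the S6 kinase genes (Rps6k). The rule found 50 genes on 57 probe sets, of 14217 genes with a single symbol and 31042 probe sets tested. By symbol alone, pseudogenes and paralogs included, 16 of the genes were counted with the small (40S) subunit and 34 with the large (60S) subunit. 8 of the 50 are named as variants, paralogs or pseudogenes (Rpl26l1, Rpl37-ps2, Rpl39l1, Rpl3l, Rpl7l1, Rps27l, Rps4x-ps1 and Rps4y2). Where a gene had several probe sets, the one with the highest mean over the 10 arrays stood for it. No probe set carried Rplp1 or Rplp2 as its only symbol, so the remaining stalk proteins were not analysed here.

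Each of the 5 groups had 2 arrays, and all animals were 40 days old. DR+/+ and JB carried no mutation at the lyp locus and are labelled as resistant to diabetes but inducible. JBlyp/lyp was homozygous for the lyp mutation and is labelled diabetes prone. These 3 groups, 6 arrays in all, are called the BB (BioBreeding) groups below. F344 and F344lyp (4 arrays, together the F344 groups) are labelled healthy control strains, the latter carrying lyp on the F344 background. DR+/+ and JBlyp/lyp came from DRlyp/+ breeder pairs, while the labels leave the relation of JB to DR unstated. Islets of fasted animals were freed by collagenase and a density gradient, and the protocol names males only but does not name JB among the strains so collected. No treatment was given, so the design compares strain backgrounds and lyp genotypes, as a search for differences present before insulitis. The labels call the arrays of a group biological replicates and do not say whether an array holds the islets of 1 animal or of several. Because an islet preparation is a mixture of cells, fewer cells of a type and less RNA per cell cannot be told apart.

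Ribosomal proteins assemble with ribosomal RNA into the 40S subunit, which reads the mRNA, and the 60S subunit, which joins amino acids. Their mRNAs are among the most abundant of growing and secreting cells. In mammals most of them begin with a C followed by a run of pyrimidines, the terminal oligopyrimidine (TOP) tract, by which mTOR signalling controls their translation. Beta cells and acinar cells both rely on a high rate of protein synthesis.

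The sequences around the annotated start of transcription are shown for 10 members on which the comparisons turn: 9 with the largest called differences between BB and F344 (8 lower, and Rps13 higher), and Rps23, which varied little. Each line gives the 25 bases before the start and the first 25 transcribed bases, 5′ to 3′ on the transcribed strand, from the RefSeq promoter table (GRCr8), with the longest run of C and T within 20 bases of the start in capitals.
Rplp0 (chr12:46718366-46718415, minus strand): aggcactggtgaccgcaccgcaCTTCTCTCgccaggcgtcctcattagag
Rps15 (chr7:10068091-10068140, minus strand): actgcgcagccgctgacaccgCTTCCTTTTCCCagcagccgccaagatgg
Rps4y2 (chr4:183000888-183000937, plus strand): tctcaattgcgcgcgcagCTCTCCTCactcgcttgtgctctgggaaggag
Rps9 (chr1:74430413-74430462, minus strand): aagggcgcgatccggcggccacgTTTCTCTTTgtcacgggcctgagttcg
Rpl24 (chr11:58128381-58128430, minus strand): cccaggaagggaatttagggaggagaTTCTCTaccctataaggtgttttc
Rpl6 (chr12:41011666-41011715, minus strand): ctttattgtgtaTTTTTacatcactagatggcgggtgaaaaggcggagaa
Rpl11 (chr5:153560778-153560827, minus strand): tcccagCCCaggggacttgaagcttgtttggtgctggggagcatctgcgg
Rpsa (chr8:128728854-128728903, plus strand): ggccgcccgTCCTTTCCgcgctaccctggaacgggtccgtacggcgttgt
Rps13 (chr1:180009636-180009685, minus strand): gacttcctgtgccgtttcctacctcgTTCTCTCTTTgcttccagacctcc
Rps23 (chr2:23814492-23814541, plus strand): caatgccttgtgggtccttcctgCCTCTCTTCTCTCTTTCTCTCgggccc
The runs of Rplp0, Rps15, Rps9 and Rps23 reach across the start, as does that of Rps4y2 by its last base. The capitals of Rpl11, Rpl6 and Rpsa (3, 5 and 8 bases long) lie before it. A window without a long run says only that these letters are not beside this annotated start.

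Of the 50 members, 43 had an entry in that table, which holds 27457 genes (Rps4x-ps1, Rpl27, Rps29, Rpl23a, Rpl7, Rpl30 and Rpl37-ps2 had none). A C at the annotated start followed by 4 pyrimidines was present in 12 of 43 members (27.9%) and in 2.63% of all genes of the table. Allowing that run to begin within 5 bases either side of the start raised the counts to 22 members (51.2%) and 17% of all genes. A pyrimidine run of 8 or more within 20 bases of the start, a length chosen after the sequences had been seen, was present in 28 members (65.1%) against 15.5%. Read from the opposite strand, where such a run appears as purines, the shares were 2 members (4.65%) against 17.1%. The median share of C and T within 20 bases of the start was 60% in members and 50% in all genes. The letters TATAAA occurred in the 50 bases before the start on the transcribed strand of 2 members (4.65%), Rplp0 and Rps28, against 2.46% of all genes, and on either strand of 4 members (9.3%) against 3.33%. Because TATAAA begins with T, its first base can be the last of a pyrimidine run.

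**Figure D1:**
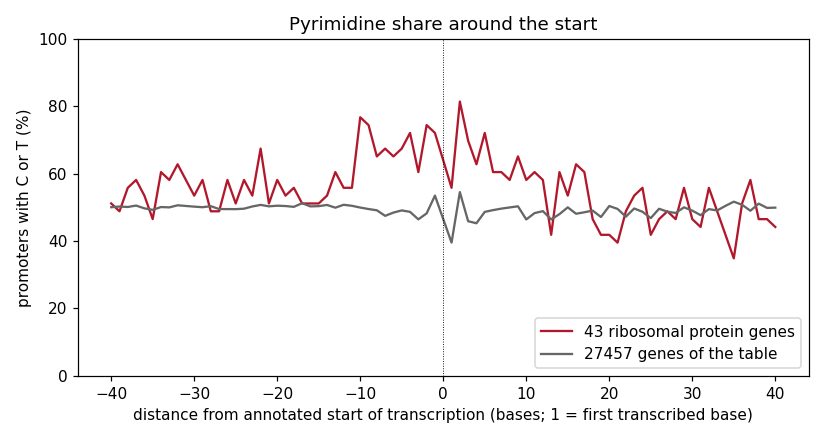
Share of promoters with C or T (percent) by distance in bases from the annotated start of transcription (1 is the first transcribed base), for 43 ribosomal protein genes and for the 27457 genes of the table. The members lie above the other genes in a band around the start, where their median share of C and T is 60% against 50%.

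Values are log2 intensities. The 10 array medians lay between 5.39 and 5.44, and 44 of the 50 members exceeded the median of all probe sets in their mean. The 6 below it were Rpl28, Rpl30, Rpl39l1, Rpl3l, Rps27l and Rps4x-ps1. The islet label was borne out by Ins1 (13.9 to 14.3 on the 10 arrays) and Ins2 (13.4 to 14.0). The DR+/+ arrays stood apart: over 22 beta cell markers their median deviation from each gene's own mean was -1.64 and -1.72, against 0.20 to 0.61 on the other 8 arrays, while 16 stellate and fibroblast markers stood at 1.07 and 1.01. The exocrine (acinar) markers, 27 of 33 listed, stood at -1.69 and -1.75 in DR+/+, -0.64 to -0.21 in JB, -1.07 and -0.25 in JBlyp/lyp and 0.93 to 1.86 in the F344 groups. The difference between the 3′ and 5′ control probe sets of Gapdh, a sign of RNA quality, was 2.75 to 3.71 in the BB arrays and 2.19 to 2.43 in the F344 arrays, with no overlap. The same difference for beta-actin did overlap. It was 2.575 and 2.857 in DR+/+, 3.304 to 4.171 in JB and JBlyp/lyp, and 2.716 to 3.055 in the F344 groups. The second JB and JBlyp/lyp arrays also stood below their replicates for many ribosomal protein genes, as described further on.

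Across arrays the members moved as a set of unequal parts. The median deviation of the 50 members from their own means was -0.37 and -0.36 in DR+/+, 0.14 and -0.19 in JB, 0.28 and -0.29 in JBlyp/lyp, 0.20 and -0.01 in F344, and 0.13 and 0.34 in F344lyp. Both DR+/+ arrays were therefore the lowest of the 10, and the JB and JBlyp/lyp pairs straddled 0. Members differed widely in how much they varied. The SD over the 10 arrays was 1.07 for Rps4y2, 0.98 for Rplp0 and 0.92 for Rps15, and was least for Rpl30 (0.12), Rps4x-ps1 (0.13) and Rps23 (0.15). Of these 3, Rpl30 read 3.73 to 4.09 and Rps4x-ps1 2.43 to 2.80, both below the median of all probe sets, whereas Rps23, a protein of the decoding centre, read 12.6 to 13.1.

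**Figure D2:**
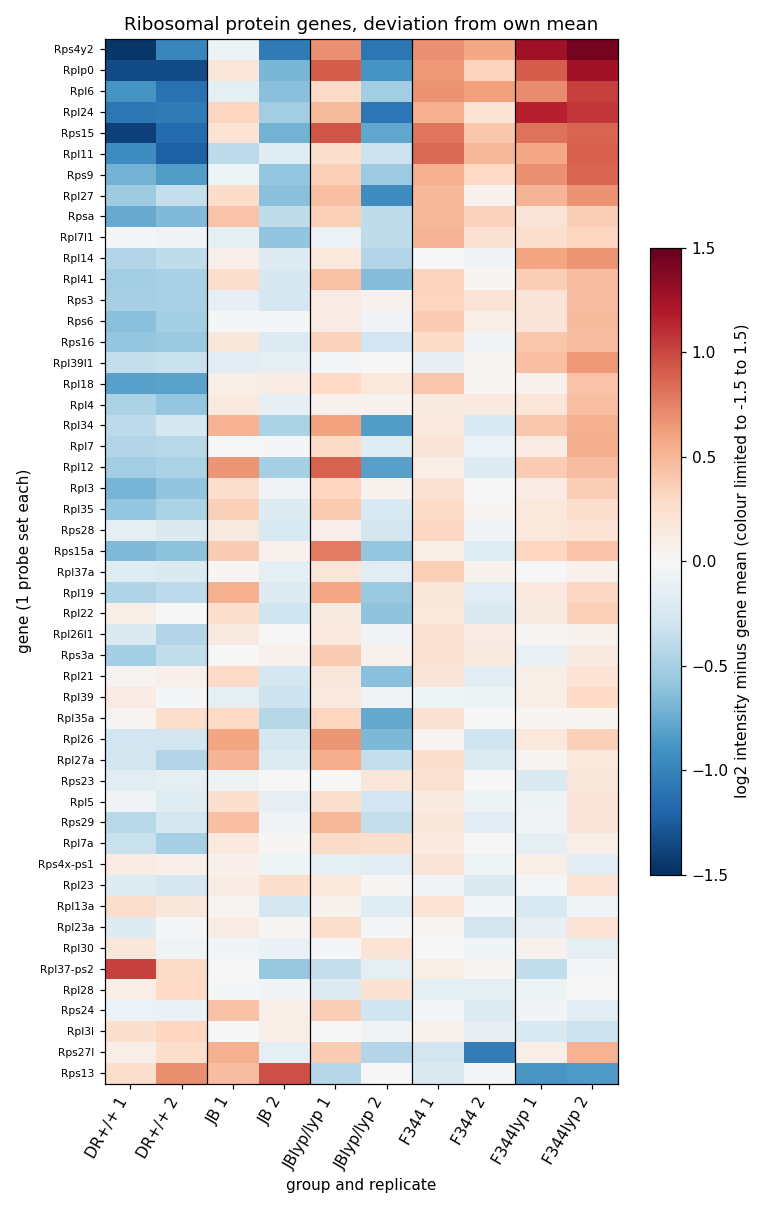
Deviation of each of 50 ribosomal protein genes (log2 intensity minus the gene's mean over 10 arrays, colour limited to 1.5 either way) on each array, by group and replicate, with genes ordered by their difference between BB and F344. The DR+/+ columns are the lowest (median deviations -0.37 and -0.36), and the second JB and JBlyp/lyp columns are below the first.

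In the BB groups as a whole, ribosomal protein genes were lower more often than higher. With limma and a Benjamini-Hochberg adjusted p under 0.05 over all 31042 probe sets, 16 of the 50 members (32%) fell and 2 (4%) rose, against 24.6% of all 14217 genes called lower and 13.3% called higher. The median difference, the mean of the 3 BB group means minus the mean of the 2 F344 group means, was -0.24 for the members and -0.04 for all genes, and 40 of 50 members lay below 0. 7 of 16 small subunit genes fell and 1 rose (median -0.27), and 9 of 34 large subunit genes fell and 1 rose (median -0.20). Of the 8 named variants, 3 fell and 1 rose. The error of this contrast does not hold the spread between groups of a side: with group as a random block (within-group correlation 0.491), 0 members were called, and with the Gapdh 3′ to 5′ difference as a covariate also 0. Under that covariate the member median was -0.37 and 44 of 50 lay below 0. Rps4y2 differed by -2.02 there (adjusted p = 0.855, limma) and Rpl11 by -0.29 (adjusted p = 0.951). The Gapdh difference did not overlap between the sides, so that covariate and the group cannot be told apart. The part of RNA quality in the members' falls was not tested. The acinar markers, of which 26 of 27 were called lower (median -2.36), fell between BB and F344 too, and their part in the members' falls was not tested. Of the other marker lists, 14 of 22 beta cell and 16 of 20 macrophage markers were called lower and 0 higher, 9 of 14 endothelial markers were higher and 2 lower, and 7 of 16 stellate markers were higher and 4 lower. Ductal (5 of 13 lower, 1 higher), other endocrine (4 of 9 lower, 3 higher) and T and B cell markers (2 of 13 lower, 1 higher) also held calls both ways.

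**Figure D3:**
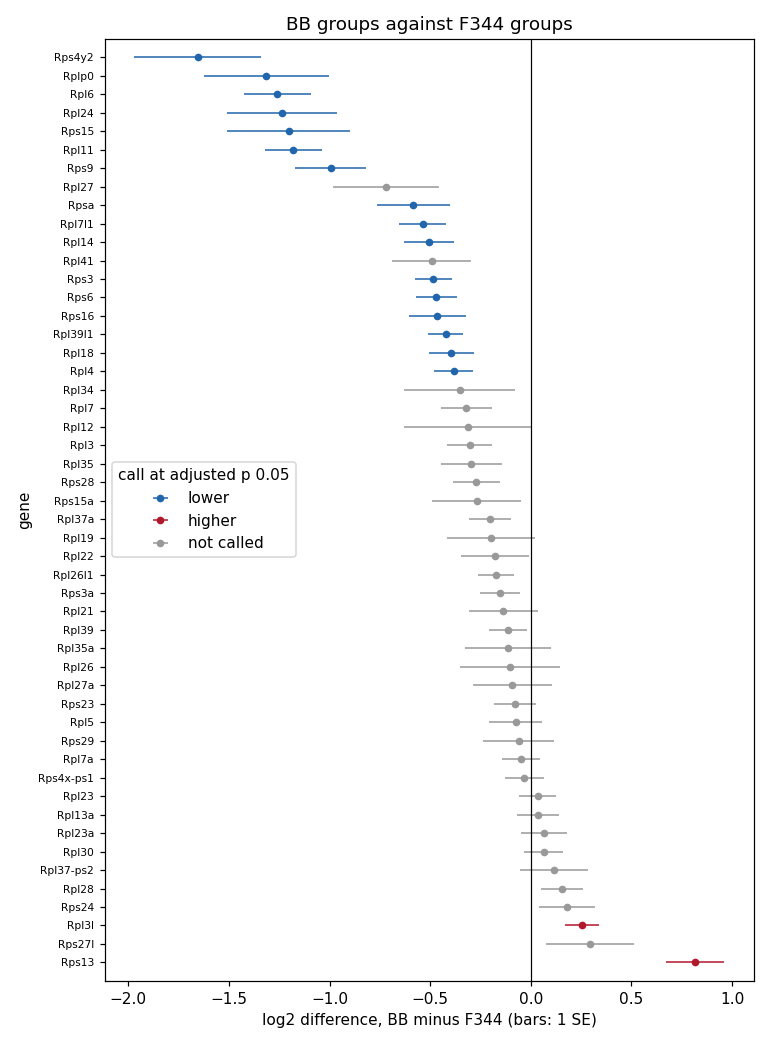
Difference between BB and F344 (log2, BB minus F344) for each of the 50 members, with bars of 1 SE and colours for the call at a Benjamini-Hochberg adjusted p of 0.05 (limma). 16 members lie to the left as called lower, from Rps4y2 at -1.66 to Rpl4 at -0.38, and Rps13 (0.82) and Rpl3l (0.26) are called higher.

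Of the large subunit proteins, Rplp0 is the scaffold of the P stalk, which draws elongation factors to the ribosome. It read 9.40 and 9.40 in DR+/+, 10.92 and 10.05 in JB, 11.65 and 9.85 in JBlyp/lyp, 11.39 and 11.07 in F344, and 11.65 and 12.00 in F344lyp. The 2 DR+/+ arrays were lowest and the first JBlyp/lyp array lay among the F344 arrays, so the sides overlapped. The difference was -1.32 (SE 0.31, adjusted p = 0.00924, limma), a 2.49-fold lower level. It was not called with 2 means and no group term (adjusted p = 0.0744) or without the DR+/+ group (-0.91, adjusted p = 0.114).

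Rpl6 and Rpl11 separated the sides on every array. Rpl6, a large subunit protein, read 10.24 and 10.01 in DR+/+, 10.98 and 10.49 in JB, 11.41 and 10.60 in JBlyp/lyp, 11.81 and 11.74 in F344, and 11.84 and 12.15 in F344lyp. Rpl11 binds 5S ribosomal RNA together with Rpl5 and can hold back Mdm2, the ligase that acts on p53. Its values were 10.73 and 10.44 in DR+/+, 11.28 and 11.48 in JB, 11.91 and 11.34 in JBlyp/lyp, 12.51 and 12.17 in F344, and 12.25 and 12.57 in F344lyp. All 6 BB arrays lay below all 4 F344 arrays for both genes. The differences were -1.26 for Rpl6 (SE 0.168, adjusted p = 0.000426) and -1.18 for Rpl11 (SE 0.142, adjusted p = 0.000245, both by limma). With group as a random block the adjusted p was 0.0579 for Rpl6 and 0.062 for Rpl11. Rpl5, the partner of Rpl11 on 5S RNA, differed by -0.07 (SE 0.132) and was not called.

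Rpl24, which forms a bridge to the small subunit, read 7.28 and 7.30 in DR+/+, 8.68 and 7.84 in JB, 8.84 and 7.27 in JBlyp/lyp, 8.90 and 8.57 in F344, and 9.53 and 9.42 in F344lyp. The second JBlyp/lyp array was as low as DR+/+, and the first arrays of JB and JBlyp/lyp lay above the second F344 array. The difference was -1.24 (SE 0.275, adjusted p = 0.00703, limma), and it was not called with 2 means and no group term (adjusted p = 0.053) or without the DR+/+ group (-0.95, adjusted p = 0.071). Other genes counted with the large subunit and called lower were Rpl7l1 (-0.54), Rpl14 (-0.51), Rpl39l1 (-0.42), Rpl18 (-0.40) and Rpl4 (-0.38). The Rpl18 difference lay in DR+/+ (-1.04 against F344). It was -0.12 between JB and F344 and -0.02 between JBlyp/lyp and F344lyp, both uncalled. Rpl14 and Rpl39l1 read higher in F344lyp than in F344, by 0.65 and 0.59, both uncalled. Against F344 alone they differed by -0.03 and -0.11 in JB and by -0.39 and -0.3 in DR+/+, none of them called. Rpl7l1, a paralog of Rpl7, was below F344 on every BB array, from 7.37 to 7.93 against 8.18 to 8.47. Rpl27 had a difference of -0.72 (SE 0.263) and was not called (adjusted p = 0.0614), and its second JBlyp/lyp array stood 1.38 below the first.

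Of the small subunit genes, Rps4y2, a variant copy of Rps4, had the lowest difference of all members. It read 4.16 and 4.65 in DR+/+, 5.55 and 4.56 in JB, 6.31 and 4.54 in JBlyp/lyp, 6.30 and 6.21 in F344, and 6.89 and 7.06 in F344lyp. The first JBlyp/lyp array equalled F344 and every other BB array was lower. The difference was -1.66 (SE 0.316, adjusted p = 0.00313, limma). Rps15, which is needed for late steps of 40S maturation, read 8.96 and 9.20 in DR+/+, 10.56 and 9.64 in JB, 11.30 and 9.58 in JBlyp/lyp, 11.16 and 10.76 in F344, and 11.17 and 11.23 in F344lyp. The first JBlyp/lyp array held the highest value of all 10, and the difference was -1.20 (SE 0.304, adjusted p = 0.0129). Without the DR+/+ group Rps15 was not called (-0.81, adjusted p = 0.145, limma). Among other settings it was not called when the first F344 or the second F344lyp array was left out.

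Rps9, a protein near the mRNA entry of the small subunit, read 10.20 and 10.07 in DR+/+, 10.84 and 10.33 in JB, 11.26 and 10.36 in JBlyp/lyp, 11.44 and 11.21 in F344, and 11.59 and 11.78 in F344lyp. All but the first JBlyp/lyp array lay below F344, and the difference was -0.995 (SE 0.177, adjusted p = 0.00217, limma). Rps3, also at the mRNA entry, fell by 0.48 with BB arrays at 11.04 to 11.66 and F344 arrays at 11.72 to 11.99, and the sides did not overlap. Rps6, the protein phosphorylated by S6 kinases when mTOR is active, read 11.65 and 11.77 in DR+/+, 12.25 and 12.25 in JB, 12.40 and 12.22 in JBlyp/lyp, 12.66 and 12.36 in F344, and 12.47 and 12.76 in F344lyp. The JBlyp/lyp and F344 values overlapped, and the difference was -0.47 (SE 0.102, adjusted p = 0.0062). Without the DR+/+ group Rps6 was not called. Rps16 was called lower as well (-0.46).

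Rpsa, the laminin receptor and a late-joining 40S protein, was measured by 3 probe sets, all called lower, with differences of -0.58, -0.76 and -0.44. The first of these read 10.88 and 10.97 in DR+/+, 12.06 and 11.24 in JB, 11.98 and 11.25 in JBlyp/lyp, 12.11 and 11.98 in F344, and 11.82 and 12.01 in F344lyp. DR+/+ and the second JB and JBlyp/lyp arrays were low, and the first arrays of JB and JBlyp/lyp were within the F344 range. The call (adjusted p = 0.0328, limma) was kept under 10 of 22 alternatives.

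2 members rose. The probe set named Rps13, a small subunit protein, lay near the median of all probe sets (array medians 5.39 to 5.44) and rests on the array's annotation. It read 5.83 and 6.27 in DR+/+, 6.03 and 6.54 in JB, 5.14 and 5.57 in JBlyp/lyp, 5.36 and 5.54 in F344, and 4.70 and 4.72 in F344lyp. DR+/+ and JB were above both F344 groups, and JBlyp/lyp overlapped F344. The difference was 0.82 (SE 0.143, adjusted p = 0.00194, limma). Rpl3l, the striated muscle paralog of Rpl3, read 2.99 to 3.63 over all arrays, below the median of all probe sets, and differed by 0.26 (SE 0.085, adjusted p = 0.0441), a call kept under 3 of 21 alternatives.

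Requiring that all 6 BB arrays lie on 1 side of all 4 F344 arrays left 4 members lower (Rpl11, Rpl6, Rpl7l1 and Rps3), against 10.6% of all genes, and 0 members higher, against 4.9%. The other 46 members overlapped between the sides. Thus 12 of the 16 members called lower had at least 1 BB array that reached the lowest F344 array.

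**Figure D4:**
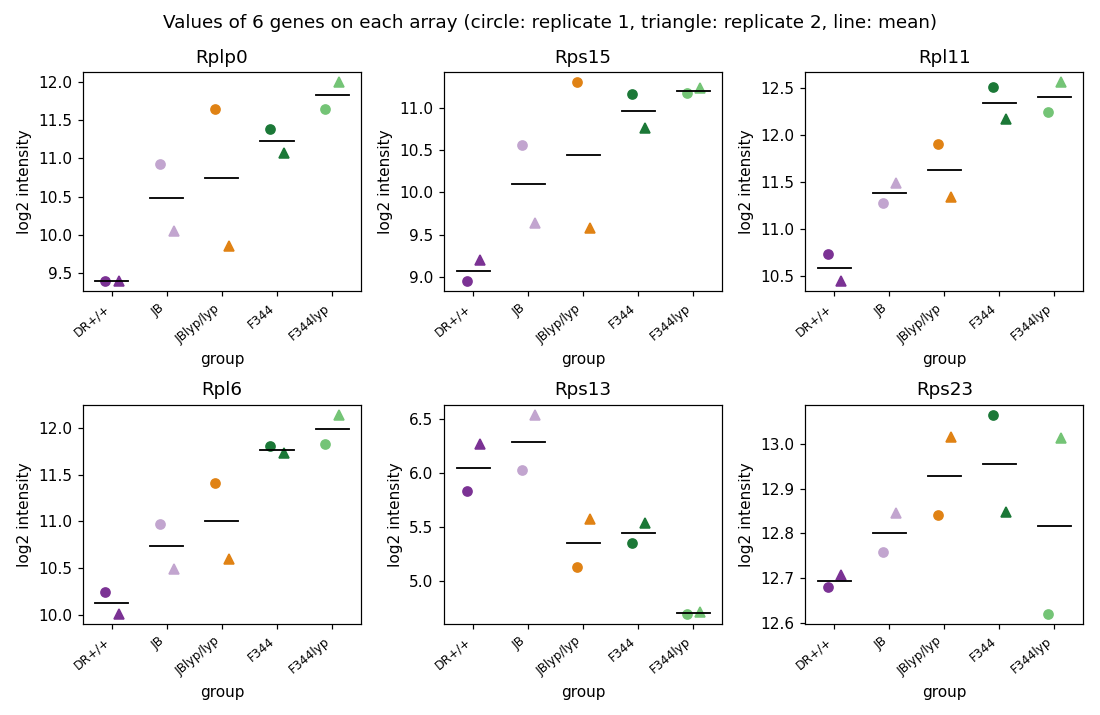
Log2 intensity of Rplp0, Rps15, Rpl11, Rpl6, Rps13 and Rps23 on each of 10 arrays by group (circle for replicate 1, triangle for replicate 2, line for the mean of 2), each panel with its own axis. Rpl11 and Rpl6 separate the BB and F344 groups, Rplp0 and Rps15 have a first JBlyp/lyp array level with F344, and Rps23 spans only 12.6 to 13.1.

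Where a gene had several probe sets they did not all give 1 answer. The higher probe set of Rpl3, a core protein beside the peptidyl transferase centre, differed by -0.30 (adjusted p = 0.0589, limma), while the second differed by 0.37 and was called higher. That second probe set read 7.84 and 7.89 in DR+/+ and 6.17 to 6.77 on the other 8 arrays, so DR+/+ alone was high. For Rpl7 the higher probe set differed by -0.32 (adjusted p = 0.0806) and the second by 0.91 (adjusted p = 0.000905). The second read 7.74 and 7.72 in DR+/+, 6.79 and 6.36 in JB, 6.42 and 6.32 in JBlyp/lyp, 5.42 and 4.86 in F344, and 6.68 and 7.00 in F344lyp, low in F344 alone. The second probe set of Rpl7l1 was called lower (-0.47) like the first, and those of Rpl14 (0.08) and Rps24 (-0.02) were not called. Neither Rpl22 (-0.18), Rpl39 (-0.11) nor Rps27l (0.29), a paralog of Rps27 that p53 can induce, was called.

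Between single groups of the 2 sides fewer members passed. Between JB and F344, both without lyp, 3 members fell and 1 rose, against 8.22% of all genes called lower and 4.79% called higher, with a member median of -0.11 against -0.04. Rpl6 fell by 1.04 (SE 0.261, adjusted p = 0.0316), Rpl11 by 0.96 (SE 0.22, adjusted p = 0.0216) and Rpl7l1 by 0.73 (SE 0.183, adjusted p = 0.0308), and Rps13 rose by 0.84 (SE 0.221, adjusted p = 0.0386, all by limma and Benjamini-Hochberg). Leaving out the second JB array, or either F344 array, left 0 calls, and leaving out either F344lyp array, which enters only through the shared spread, left 1. The second probe set of Rpl7 was called higher in this comparison (1.44, adjusted p = 0.00289). Between JBlyp/lyp and F344lyp, both with lyp, 4 members fell and 0 rose, against 11.3% and 4.7% of all genes, with a member median of -0.25 against -0.04. These were Rpl6 (-0.99, adjusted p = 0.0337, limma), Rpl11 (-0.79, adjusted p = 0.0421), Rpl14 (-0.77, adjusted p = 0.0264) and Rpl39l1 (-0.56, adjusted p = 0.0226). Rpl39l1 read only 3.00 to 4.01 over all arrays, below the median of all probe sets. The Rpl14 arrays were 9.68 and 9.09 in JBlyp/lyp against 10.11 and 10.18 in F344lyp. Leaving out the first JBlyp/lyp array gave 16 calls, leaving out the second JBlyp/lyp or second F344lyp array gave 0, and leaving out any other array of DR+/+, F344 or F344lyp gave 1 or 2. These 2 comparisons share no arrays, but each is part of the BB and F344 contrast. Acinar markers were called lower in 23 of 27 between JB and F344 (median -1.47) and 25 of 27 between JBlyp/lyp and F344lyp (median -2.35), and macrophage markers in 12 and 16 of 20, and their part was not tested. Of 22 beta cell markers, 4 were called lower and 4 higher between JB and F344 (median 0.09). Between JBlyp/lyp and F344lyp 3 of them were lower and 4 higher (median 0.10). With the Gapdh covariate 0 members were called in either comparison.

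DR+/+ was the lowest group for most members. Against JB, 7 members fell and 1 rose, against 18.4% of all genes called lower and 15.5% called higher, with a member median of -0.41 and 39 of 50 below 0. Rpl18, a large subunit protein, read 11.49 and 11.51 in DR+/+ and 12.42 and 12.43 in JB, and differed by -0.92 (SE 0.172, adjusted p = 0.0029, limma). It was the only one of 5 named genes of this comparison that kept its call under all 19 alternatives. Rpl11 (-0.80), Rpl3 (-0.74), Rps6 (-0.54), Rpl4 (-0.54), Rpl7a (-0.50) and Rps3a (-0.47) were also called lower. The second probe set of Rpl3 was called higher (1.28, SE 0.156, adjusted p = 0.000238), as was that of Rpl7 (1.16, adjusted p = 0.00281), and the mean of the Rpl3 probe sets differed by 0.27. Rpl37-ps2, a transcribed pseudogene, read 7.29 and 6.55 in DR+/+ against 6.27 and 5.69 in JB and was called higher (0.94, adjusted p = 0.0234). Leaving out both second arrays of JB and JBlyp/lyp gave 25 calls. Leaving out either JBlyp/lyp array gave 16, either DR+/+ array 2 or 3, and the first JB array 3.

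Against F344, DR+/+ had 17 members called lower and 0 higher, against 23.8% and 16.3% of all genes, with a member median of -0.41 against -0.06. The differences were -1.88 for Rps15 (SE 0.471, adjusted p = 0.0122), -1.85 for Rps4y2 (SE 0.489, adjusted p = 0.0159), -1.83 for Rplp0 (SE 0.48, adjusted p = 0.0151) and -1.76 for Rpl11 (SE 0.22, adjusted p = 0.000233, all by limma). Rpl6 (-1.65), Rpl24 (-1.44), Rps9 (-1.19), Rpsa (-1.13) and Rpl18 (-1.04) followed. 8 of 16 small subunit genes and 9 of 34 large subunit genes were called lower. The second probe sets of Rpl3 (1.26) and Rpl7 (2.60) were called higher. Leaving out the first F344 array left 6 calls, the second 9, and either DR+/+ array 11. This comparison shares its DR+/+ arrays with the one against JB and its F344 arrays with that of JB. The beta cell markers were lowest, and the stellate markers highest, on the same 2 DR+/+ arrays, and their part in these differences was not tested.

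With 1 probe set a gene, no member was called for lyp genotype. JBlyp/lyp came from DRlyp/+ breeder pairs and the relation of JB to DR is unstated. Between JBlyp/lyp and JB, called lyp in JB here, lyp and strain therefore cannot be told apart. The difference between the lyp effects shares this limit. In JB, 0 of 50 members passed with limma (1 at an unadjusted p under 0.05), where 0.00703% of all genes were called either way, and the member median was 0.02. In F344, 0 passed (4 at an unadjusted p under 0.05) where 1.9% of all genes were called, and the median was 0.12 against 0.04, with 36 of 50 above 0. The difference between the lyp effects gave 0 calls (3 at an unadjusted p under 0.05), where 0.478% of all genes were called. With 2 arrays a group, the SE of a member ranged from 0.132 to 0.489 for lyp in JB or in F344. Differences several times their SE also went uncalled, so lyp effects larger than these SE could be missed as well. Rps13 was lower with lyp in both comparisons in every array. The fall was 0.93 in JB (SE 0.221, adjusted p = 0.432, limma) and 0.74 in F344 (SE 0.221, adjusted p = 0.143), and neither passed the test. Among these probe sets Rpl39l1 had the lowest adjusted p in F344 (0.0665), at 3.80 and 4.01 with lyp against 3.23 and 3.40 without. The second probe set of Rpl7 was called: it was higher with lyp in F344 by 1.70 (SE 0.214, adjusted p = 0.00502, limma), differed by -0.21 with lyp in JB (SE 0.214, adjusted p = 0.93), and the difference between these effects was -1.91 (SE 0.303, adjusted p = 0.0389). The first probe set of Rpl7 was not called in these comparisons.

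Replicates of JB and JBlyp/lyp differed from each other by more than those of the other groups, and a larger share of ribosomal protein genes than of all genes showed the gap. The first array exceeded the second by over 0.5 in 19 of 50 members (38%) in JB, against 10.3% of all genes, and in 26 (52%) in JBlyp/lyp, against 13.3%. In DR+/+ and F344 it was 1 member each (2%), and in F344lyp 0. The median gap of members was 0.35 in JB, 0.54 in JBlyp/lyp, 0.26 in F344, -0.18 in F344lyp and -0.02 in DR+/+. 18 members (36%) exceeded 0.5 in both JB and JBlyp/lyp, against 6.41% of all genes. They were Rpl12, Rpl19, Rpl21, Rpl22, Rpl24, Rpl26, Rpl27, Rpl27a, Rpl34, Rpl35, Rpl35a, Rpl41, Rplp0, Rps15, Rps27l, Rps4y2, Rps9 and Rpsa.

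The widest gaps in JBlyp/lyp were those of Rplp0 (1.79), Rps4y2 (1.77), Rps15 (1.72), Rpl12 (1.71), Rpl24 (1.56) and Rpl34 (1.44). Rpl12, which lies at the base of the stalk beside Rplp0, read 11.36 and 11.40 in DR+/+, 12.54 and 11.37 in JB, 12.76 and 11.06 in JBlyp/lyp, 11.98 and 11.69 in F344, and 12.25 and 12.33 in F344lyp. Its first JB and JBlyp/lyp arrays were the highest of all 10 and the second JBlyp/lyp array the lowest, and the difference between BB and F344 (-0.31, SE 0.315) was not called. By contrast Rpl18 differed by 0.14 between the JBlyp/lyp arrays and Rpl7a by 0.01. Acinar markers had median gaps of 0.42 in JB and 0.66 in JBlyp/lyp and mitochondrial ribosomal proteins 0.30 and 0.41, and the part of either in the gaps was not tested. Without both first arrays of JB and JBlyp/lyp, 33 members were called between BB and F344, and without both second arrays 19.

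**Figure D5:**
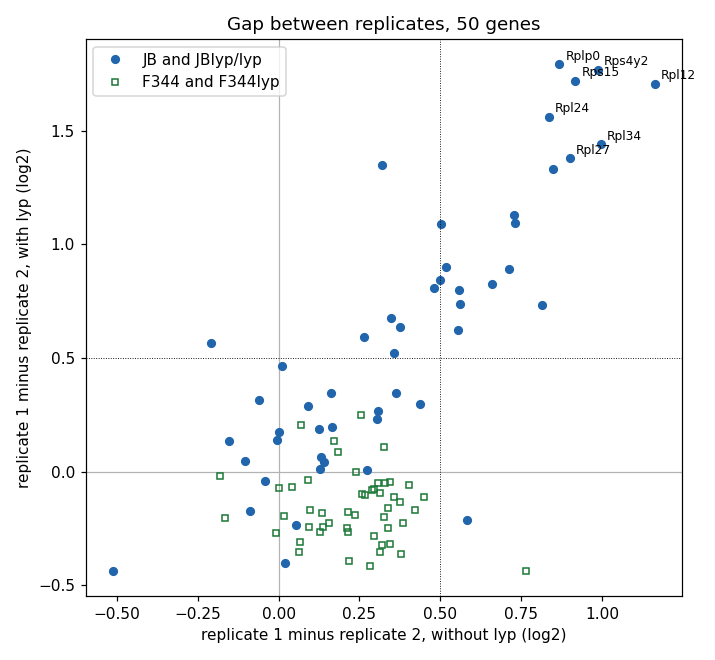
Gap between replicates (log2, replicate 1 minus replicate 2) of 50 ribosomal protein genes, without lyp on the horizontal axis and with lyp on the vertical axis, for JB and JBlyp/lyp (circles) and for F344 and F344lyp (open squares), with dotted lines at 0.5. 18 members lie beyond both lines for JB and JBlyp/lyp, with Rplp0, Rps4y2, Rps15 and Rpl12 farthest out.

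TOP-like starts were counted by call. Of the 43 with a promoter entry, the C and 4 pyrimidines within 5 bases of the start were present in 6 of 16 called lower between BB and F344, 1 of 2 called higher and 15 of 25 not called. The median longest run of pyrimidines was 7.5 bases in those called lower and 11 in those not called. These counts describe annotated starts only and were not tested.

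Other genes of protein synthesis were lower in BB than in F344 as well. Of 73 mitochondrial ribosomal proteins, which serve the separate ribosome of the organelle, 41 fell and 1 rose (median -0.49), against the 24.6% of all genes called lower. Mrpl20 had the largest fall of that list (-1.31, SE 0.119, adjusted p = 4.91e-05, limma), from 8.38 to 9.11 in the F344 groups to 6.64 to 7.94 in the BB groups. Of 40 translation factors 20 fell and 1 rose (median -0.34), among them Eif2b5 (-1.19), a subunit of the exchange factor of eIF2, Eif3c (-1.15) of the initiation complex eIF3, and Eif6 (-0.96), which keeps free 60S subunits from joining. Of 13 other mRNAs known for a TOP tract, several of which stand in the translation factor list too, 6 fell and 0 rose (median -0.31). The elongation factor Eef2 (-0.70, SE 0.1, adjusted p = 0.000627) was among them.

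Of 60 ribosome biogenesis genes 27 fell and 5 rose (median -0.31), with Imp3 (-1.27) and Tbl3 (-1.23), of the particle that processes the 18S precursor, lowest, and the kinase Riok1 (1.11) higher. Of 23 genes of the mTOR pathway and Myc, 9 fell and 1 rose (median -0.16). Among the falls were Akt1 (-0.98), Lamtor2 (-0.91), Tsc2 (-0.70) and Eif4ebp1 (-0.68). Between single groups the same lists gave fewer calls. Mitochondrial ribosomal proteins had 8 of 73 lower between JB and F344 and 12 between JBlyp/lyp and F344lyp. Translation factors had 4 and 5 of 40 lower (1 factor rose between JB and F344), where 8.22% and 11.3% of all genes were called lower. Neither the mitochondrial list nor the translation factors had a call for lyp in JB or in F344, with limma and Benjamini-Hochberg adjustment. The share of members called lower between BB and F344, 32% of cytosolic ribosomal protein genes, was thus nearer to the background of 24.6% than that of these lists, and the difference between lists was not tested.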

How the data were processed

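Islet RNA from 10 samples was hybridised to a rat expression array. The deposited unit is log2 intensity, 1 value a probe set on each array, which GCOS and RMA gave per the submitters' processing notes, without versions. RMA scales arrays to each other, so a shift shared by most probe sets is removed. After 57 control probe sets were removed, 31042 were tested without a filter. Gene symbols are those of the platform annotation, which can be old, and 48 of the 50 members matched a RefSeq gene by identifier. 35 probe sets that list several symbols, ribosomal protein genes among them, were left out.

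A mean per group was fitted in limma 3.58.1 (R 4.3.3) with 8 contrasts, two-sided eBayes tests (5 residual and 4.72 prior degrees of freedom) and Benjamini-Hochberg adjustment over all probe sets. For BB against F344 the procedure was tested on simulated data. These had independent noise on each array and held no spread between groups of a side. The labels name the arrays biological replicates without saying whether animals were pooled, so p-values measure the spread between these arrays, and 2 arrays per group limit the precision. Members, lists and tests were chosen with earlier results of these data known. Named genes were the 8 largest called falls and rises between BB and F344, the 4 largest elsewhere, Rplp0, Rpsa, Rps6, paralog pairs, genes with disagreeing probe sets, the 3 least and 3 most variable members, and up to 4 called genes of each other list. Further members were named after their values were seen. Alternatives changed the scaling, moderation, filter, probe set choice, block, RNA quality covariate and arrays. Promoter windows were read from RefSeq (GRCr8). Plots were made in matplotlib 3.10.9 (Python 3.11.15).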

Additional observations from a re-analysis of the deposited data

Results flagged for a closer look

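Signal in probe sets that the comparisons above do not use was also different between BB and F344. 35 probe sets list several gene symbols of which at least 1 is a ribosomal protein gene, and 17 of them were called lower and 0 higher between BB and F344 (limma, Benjamini-Hochberg adjusted p under 0.05), where 24.6% of all genes were lower and 13.3% higher, with a median difference of -0.46 and a range from -1.42 to 0.61. Their median deviation was -0.51 and -0.43 in the DR+/+ arrays and 0.09 to 0.45 in the F344 groups. The median gap between the JBlyp/lyp arrays was 0.69, and 20 of the 35 exceeded 0.5, against 13.3% of all genes. Which of the listed genes gives the signal was not tested.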

How the results depend on the processing

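With 1 array of a group left out, its other array is taken to vary like the other groups. The counts of called members were the results that moved. The median difference of the members between BB and F344 stayed below 0 under all 22 alternatives run (-0.40 to -0.11). With quantile scaling it was -0.11 with 34 of 50 members below 0. The median of all genes was -0.04 in the main fit. Between JB and F344 the member median ran from -0.27 to 0.01, and between JBlyp/lyp and F344lyp from -0.45 to 0.04. Between BB and F344, 18 members were called in all, 0 with the Gapdh covariate, 0 with group as a random block, 5 with 2 means and no group term, 8 without DR+/+, 33 without both first arrays of JB and JBlyp/lyp, and 11 to 25 with 1 array left out (11 without the second F344lyp array). The 2 settings that leave out a pair of JB and JBlyp/lyp arrays were chosen after seeing the data. Between JB and F344 (4 calls) the Gapdh covariate gave 0, leaving out both first arrays 11, both second arrays 7 and single arrays 0 to 6. Between JBlyp/lyp and F344lyp (4 calls) the Gapdh covariate gave 0, both first arrays out 23, both second out 2 and single arrays 0 to 16. For lyp in F344 (0 calls) an intensity trend gave 1, gene means 2, either pair left out 6 and single arrays 0 to 1 (1 without either JBlyp/lyp array); lyp in JB and the difference between the lyp effects stayed at 0 in every setting run. Between DR+/+ and JB (8 calls) quantile scaling gave 3, the Gapdh covariate 2, both second arrays out 25 and single arrays 2 to 16; between DR+/+ and F344 (17 calls) the Gapdh covariate gave 0, leaving out either pair 30 and single arrays 6 to 22. The replicate block gave 19 calls between BB and F344, 8 between JBlyp/lyp and F344lyp, 13 between DR+/+ and JB and 1 for lyp in F344, and changed no other count by over 1.5 times. Same-numbered arrays deviated together in JB and JBlyp/lyp (r = 0.652 over probe sets). With 1 probe set a gene, r of these gaps was 0.84 over the members and 0.709 over all genes. Over probe sets, they deviated together less in either with F344 or F344lyp (0.2 to 0.237). They did not in F344 with F344lyp (0.032) or DR+/+ with any group (-0.101 to 0.079). Not every pair passed 0.1, so the block was kept as an alternative. Of the named values that were called, 2 turned: Rpl11 between JB and F344 was 0.12 with the Gapdh covariate, and Rpl3 between DR+/+ and JB was 0.27 with the mean of its probe sets. Of those not called between BB and F344, Rpl7 (0.29) and Rpl3 (0.03) turned with gene means, Rps27l (-0.30) and Rpl30 (-0.06) with the Gapdh covariate, Rps23 (0.20) with quantile scaling and Rpl22 (0.04) without both second arrays of JB and JBlyp/lyp; Rps23 (0.02) and Rps4x-ps1 (0.03) also turned with 1 F344lyp array left out, and Rps4x-ps1 (0.03) without the first F344 array. The Gapdh difference does not overlap between the sides, so that covariate and the group cannot be told apart for BB and F344, and the causes of the other shifts were not tested.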
